A study of Mus musculus with 16 samples.

Results

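The 10 genes described here are markers of hepatic stellate cells and of scar matrix: Col1a1, Col1a2, Col3a1, Timp1, Acta2, Lum, Dcn, Des, Pdgfrb and Lox. They are 10 of the 20284 gene symbols on the array and were found through the accession that the scanner files give for each probe, matched to its gene symbol. They were represented by 11 probes, and 9 of the 10 genes were bright enough to be tested among 25789 features.

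Total RNA from the livers of 16 male mice was measured on Agilent mouse arrays in 1 colour, with 1 array a mouse, and the mice had a stated age of 8 weeks, with livers taken after 8 weeks. The 8 miR-185-inh mice had received a lentivirus carrying an antisense inhibitor of the microRNA miR-185, and the 8 ctrl-inh mice a control inhibitor whose construct the labels do not describe. All 16 mice lacked ApoE and ate a high-fat diet, so no comparison sets a normal genotype or diet against these. The title of the series places its question at bile acid synthesis and FoxO1, and fibrosis is not named in it.

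Hepatic stellate cells lie between hepatocytes and the sinusoidal endothelium and store vitamin A. In injury they turn into contractile myofibroblasts that secrete fibrillar collagens and the inhibitors that protect those collagens from proteases. Portal fibroblasts, vascular smooth muscle and mesothelium make several of the same proteins, so the genes mark a class of cells and not 1 cell type.

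Every array carried 59305 non-control spots, of which 58.7% to 74.8% were well above background, and the median signal ran from 182 to 268. The groups were on different slides, scanned separately, and the treatment cannot be told apart from slide or scan. Each slide had 2 rows with 4 arrays each, and the row followed the mouse numbers: row 1 held the lower numbers of each group and row 2 the higher ones. Row and mouse number therefore cannot be told apart either. The share of spots well above background was 60.7% to 62.3% in miR-185-inh row 2, 62.5% to 67.1% in miR-185-inh row 1, 58.7% to 64.2% in ctrl-inh row 2 and 68.6% to 74.8% in ctrl-inh row 1, so the rows of both slides did not overlap. Defining markers of stellate cells (Lrat, Reln), smooth muscle (Myh11), endothelium (Stab2), Kupffer cells (Clec4f), bile duct (Krt19), mesothelium (Msln) and hepatocytes (Alb) were well above background on all 16 arrays, and none of these 8 genes passed limma's test in any of the comparisons below. The labels number the samples without saying that they came from separate animals; each is taken as 1 mouse, and a p-value then covers the scatter of these samples alone, part of which may be technical. The number of arrays limits the precision.

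Between the groups the collagens and their partners were close together. Col1a1, Col1a2 and Col3a1, the chains of the fibrillar collagens I and III, had mean differences of -0.04, 0.018 and 0.018 on the log2 scale, and decorin, the proteoglycan encoded by Dcn, had one of 0.011. None of the 9 genes passed limma's test between miR-185-inh and ctrl-inh livers (0 of 9 at an adjusted p under 0.05 and 0 of 9 at an unadjusted p under 0.05), where 4.71% of all features passed the first threshold and 20.2% the second. The 9 differences had a median of 0.018, with 6 above and 3 below 0; over all features the median was -0.033. The median of the 9 lay between -0.067 without ctrl-inh mouse 9 and 0.092 without ctrl-inh mouse 1.

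Levels are given as log2 of the processed signal relative to the 75th percentile of the same array, so a value is comparable between mice but not between genes, whose probes differ. Col1a1, the alpha 1 chain of collagen I, had a lowest value of 0.64, a median of 1.21 and a highest value of 2.06 in miR-185-inh livers, against 0.98, 1.33 and 1.83 in ctrl-inh livers. The log2 difference was -0.04 (SE 0.17, 95% interval -0.40 to 0.32, limma adjusted p = 0.923). Col1a2, the alpha 2 chain, spanned 2.48 to 3.28 (median 2.74) in miR-185-inh livers and 2.17 to 3.33 (median 2.78) in ctrl-inh livers, a difference of 0.018 (95% interval -0.29 to 0.32). Col3a1, the chain of collagen III, spanned 2.48 to 3.54 (median 2.88) in miR-185-inh livers and 2.32 to 3.42 (median 2.90) in ctrl-inh livers, a difference of 0.018 (95% interval -0.30 to 0.34). The ranges of the groups overlapped for each of the 3 collagens, and the intervals took in 0. Only 0.855% of all features had groups that did not overlap.

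The small leucine-rich proteoglycans, which bind collagen fibrils and help to set their diameter, overlapped between the groups too, as nearly all features did. Dcn had the narrowest spread of the set: 3.99 to 4.56 (median 4.31) in miR-185-inh livers and 3.96 to 4.47 (median 4.35) in ctrl-inh livers, a difference of 0.011 (SE 0.094, 95% interval -0.19 to 0.21). Lum, which encodes lumican, spanned 0.30 to 0.98 (median 0.67) in miR-185-inh livers and -0.08 to 1.29 (median 0.89) in ctrl-inh livers, a difference of -0.088 (95% interval -0.43 to 0.26).

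Acta2, the smooth muscle actin that stellate cells switch on when they turn into myofibroblasts, differed most in its spread. Its values ran from -0.89 to 0.30 (median -0.17) in miR-185-inh livers and from -1.70 to 1.43 (median -0.56) in ctrl-inh livers, with an SD of 0.39 in miR-185-inh and 0.98 in ctrl-inh livers (n = 8 each). The mean difference was 0.13 (SE 0.34, 95% interval -0.59 to 0.85), and the widths of the spread were not tested against each other. Des, the intermediate filament protein desmin of resting and active stellate cells and of muscle, averaged -1.85 ± 0.38 (SD, n = 8) in miR-185-inh livers and -1.95 ± 0.40 (SD, n = 8) in ctrl-inh livers, a difference of 0.11 (95% interval -0.28 to 0.49). Pdgfrb, the receptor through which PDGF drives stellate cell division and migration, averaged -0.03 ± 0.41 (SD, n = 8) in miR-185-inh livers and -0.17 ± 0.24 (SD, n = 8) in ctrl-inh livers, a difference of 0.14 (95% interval -0.19 to 0.47, limma adjusted p = 0.675).

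Timp1, the secreted inhibitor of matrix metalloproteinases, spanned -3.83 to -1.64 (median -3.60) in miR-185-inh livers and -4.52 to -1.52 (median -3.19) in ctrl-inh livers. Its difference was -0.10 (SE 0.39, 95% interval -0.93 to 0.73, limma adjusted p = 0.918), the widest interval of the 9. The highest value was that of mouse 9 among the miR-185-inh mice (-1.64, the next -3.11) and of mouse 1 among the ctrl-inh mice (-1.52, the next -2.59). Of these 2 mice only miR-185-inh mouse 9 was past Dixon's limit for an outlier. Lox, the lysyl oxidase that cross-links collagen, was not tested: its 2 probes were well above background on 0 of 8 miR-185-inh arrays and on 3 and 4 of 8 ctrl-inh arrays, so no level or fold is given for it in any comparison.

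**Figure D1:**
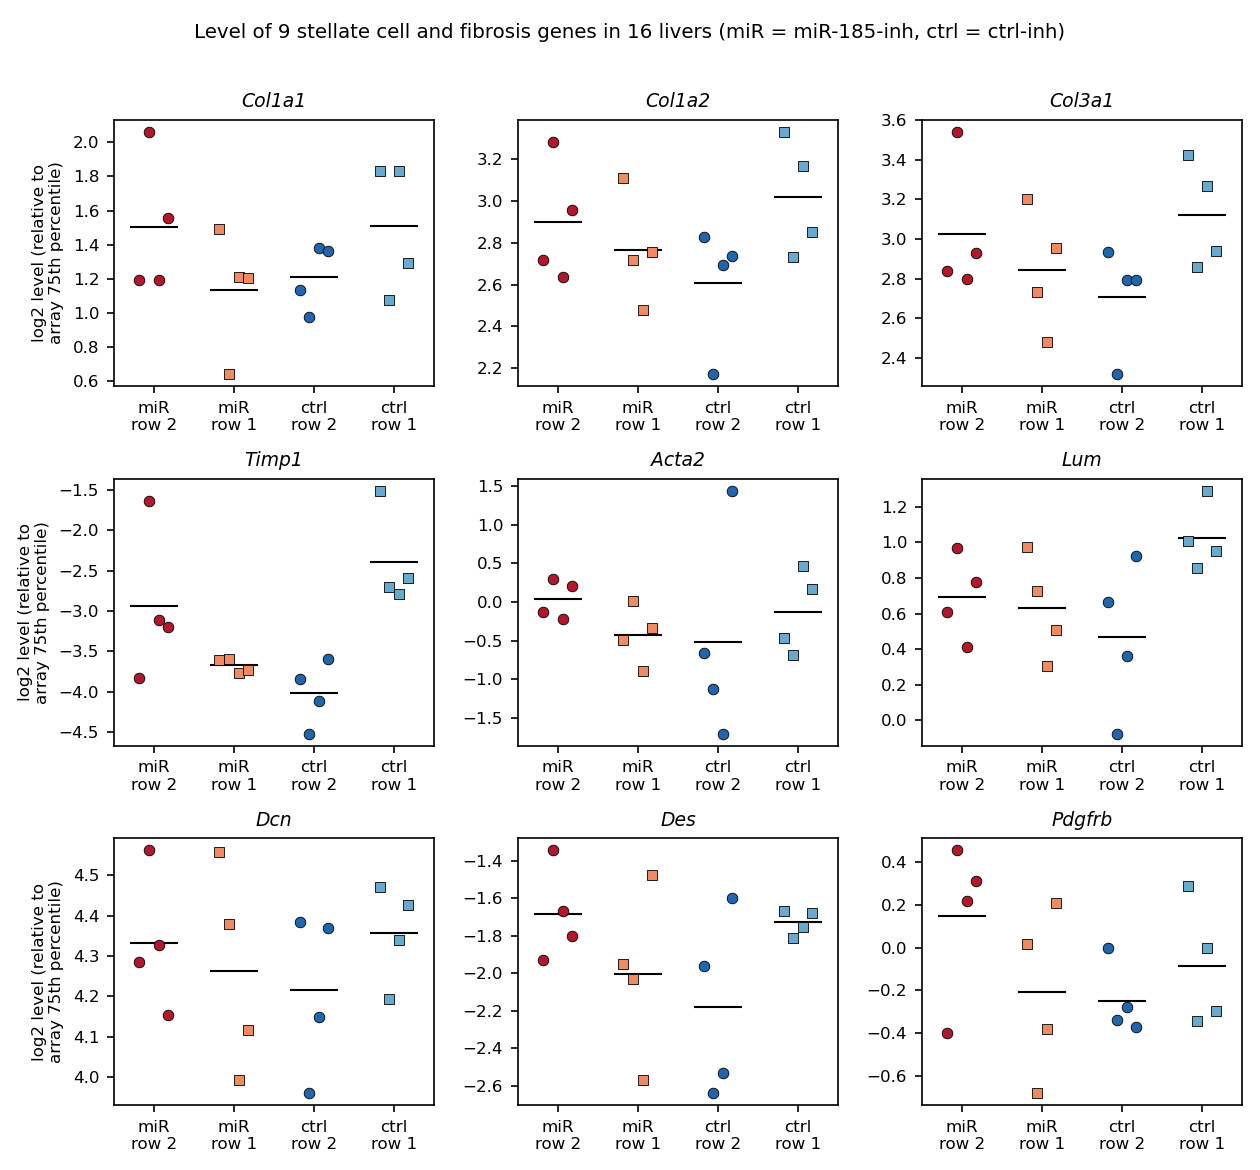
Log2 level of the 9 tested genes in each of the 16 livers, relative to the array's 75th percentile, split by group and by slide row (4 mice per column); the black bar is the mean of the 4. Timp1 shows the clearest split, with the 4 ctrl-inh row 2 livers at -4.52 to -3.59 and the 4 ctrl-inh row 1 livers at -2.80 to -1.52.

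Split by slide row, the means differed in opposite directions on the 2 slides. In ctrl-inh livers all 9 genes had a lower mean in row 2 than in row 1, with a median log2 difference of -0.41, and of the 9 only Timp1 passed the test. The median was -0.27 without ctrl-inh mouse 9. In miR-185-inh livers all 9 had a row 2 mean above that of row 1, with a median of 0.32, and none passed.

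Timp1 measured -3.84, -4.52, -4.12 and -3.59 in ctrl-inh mice 8, 9, 11 and 12 of row 2, against -1.52, -2.70, -2.80 and -2.59 in ctrl-inh mice 1, 2, 3 and 4 of row 1. The 2 rows did not overlap, and row 2 was 3.07-fold lower (log2 difference -1.62, SE 0.38, 95% interval -2.42 to -0.81, limma adjusted p = 0.0341). An exact permutation test on Timp1 alone gave p = 0.0286 (two-sided), the smallest that the 70 splits of 4 against 4 allow. In miR-185-inh livers Timp1 measured -3.83, -1.64, -3.11 and -3.20 in mice 8, 9, 10 and 12 of row 2, against -3.60, -3.60, -3.77 and -3.73 in mice 1, 3, 6 and 7 of row 1. There the rows overlapped through mouse 8, while 5.48% of all features had rows without overlap. The difference was 0.73 (95% interval -0.07 to 1.53, limma adjusted p = 0.342). It was 0.30 without miR-185-inh mouse 9.

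The Timp1 call in ctrl-inh livers was made for 3.24% of all features in the same comparison, and 18.6% of all features had rows that did not overlap there. It held in 11 of the 16 fits that each left out 1 mouse. The call ended without ctrl-inh mouse 1 (-1.32, adjusted p = 0.105), mouse 2 (-1.72, 0.0651), mouse 4 (-1.68, 0.0711), mouse 9 (-1.45, 0.0783) or mouse 11 (-1.58, 0.0926), all by limma. With slide column as a covariate it was -1.62 with an adjusted p of 0.0600. After normexp background correction the difference was smaller, -1.08, with a limma adjusted p of 0.0362, so the call held but the fold depended on the background correction. The share of spots well above background, which was lower in ctrl-inh row 2 than in ctrl-inh row 1 without overlap, moved with the row, and its part in the result was not tested.

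The other 8 genes in ctrl-inh livers had row differences between -0.56 and -0.14. Lum measured 0.67, -0.08, 0.36 and 0.92 in ctrl-inh mice 8, 9, 11 and 12 of row 2, against 1.01, 0.86, 1.29 and 0.95 in mice 1, 2, 3 and 4 of row 1, a difference of -0.56 (95% interval -0.98 to -0.14, limma adjusted p = 0.127). Those rows overlapped through mouse 12. Col1a2 was at -0.41 (95% interval -0.81 to -0.015, limma adjusted p = 0.219), Col3a1 at -0.41 (95% interval -0.83 to 0.008, adjusted p = 0.241) and Des at -0.46 (95% interval -0.95 to 0.04, adjusted p = 0.268). Col1a1 at -0.29, Acta2 at -0.39, Pdgfrb at -0.16 and Dcn at -0.14 had intervals that took in 0 on both sides. Acta2 in ctrl-inh row 2 held both extremes of its range, 1.43 in mouse 12 and -1.70 in mouse 11, and its row difference was 0.0095 without mouse 11. Of the 9 genes 3 had an unadjusted p under 0.05 in this comparison, against 21.3% of all features, whose median was 0.089 with 67.2% above 0.

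In miR-185-inh livers the 9 row differences ran from 0.06 for Lum to 0.73 for Timp1, and none of the 25789 features passed the test there (limma, percent called 0), although 16.9% of all features and 0 of the 9 genes had an unadjusted p under 0.05. That count of 0 turned on single arrays: 709 features passed without miR-185-inh mouse 7 and 73 without miR-185-inh mouse 8. Between the ends of the range stood Acta2 at 0.47, Col1a1 at 0.37, Pdgfrb at 0.36, Des at 0.32, Col3a1 at 0.18, Col1a2 at 0.13 and Dcn at 0.071, and the intervals of all 9 genes took in 0. The median of 0.32 was 0.20 without mouse 3, 0.13 without mouse 6 and 0.18 without mouse 9, and without mouse 6 or mouse 9 Lum and Dcn turned to below 0. Averaged over both groups, the row difference had a median of -0.067, with 3 genes above and 6 below 0. None of the 9 passed (limma; 0 also at an unadjusted p under 0.05), while 3.22% of all features did. Timp1 had the largest of these averaged differences, -0.44 (95% interval -1.01 to 0.12, adjusted p = 0.347). The others were Lum at -0.25, Col1a2 at -0.14, Col3a1 at -0.11, Des at -0.067, Dcn at -0.036, Col1a1 at 0.036, Acta2 at 0.04 and Pdgfrb at 0.097, and each interval took in 0. This median was 0.0064 without ctrl-inh mouse 9 and -0.16 without ctrl-inh mouse 12.

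Set against each other within a row, the groups differed in opposite directions. The comparisons within rows and those within groups use the same 16 arrays, so their values are 2 views of the same 4 sets of mice. Among the row 2 arrays all 9 genes had the higher mean in miR-185-inh livers, with a median difference of 0.32, and none passed, where 5.78% of all features did. The median was 0.16 without miR-185-inh mouse 9 and 0.21 without ctrl-inh mouse 9. At an unadjusted p under 0.05 the count was 2 of 9, against 24.3% of all features. Of all features 37.1% were above 0 in row 2. Among the row 1 arrays all 9 had the lower mean in miR-185-inh livers, with a median of -0.28, and none passed, where 0.00776% of all features did. The median was -0.16 without miR-185-inh mouse 6, and the 2 features called became 171 without miR-185-inh mouse 7, 450 with the percentile over detected probes and 3682 with no filter on dim probes. At an unadjusted p under 0.05 the count was 1 of 9, against 17.5% of all features. Of all features 51.4% were above 0 in row 1.

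Timp1 was 2.11-fold higher in miR-185-inh than in ctrl-inh livers in row 2 (log2 difference 1.07, 95% interval 0.27 to 1.88, limma adjusted p = 0.0995; exact permutation p = 0.0571). It was 2.42-fold lower in row 1 (log2 difference -1.27, 95% interval -2.08 to -0.47, limma adjusted p = 0.117; exact permutation p = 0.0286), where the 4 miR-185-inh values all lay below the 4 ctrl-inh values. Groups that did not overlap were found for 11.6% of all features in row 1. The difference in row 2 was 0.64 without miR-185-inh mouse 9. Acta2 in row 2 differed by 0.55 (95% interval -0.49 to 1.60), and by 1.20 with a limma adjusted p of 0.0498 once ctrl-inh mouse 12 was left out. The other row 2 differences were 0.50 for Des (95% interval 0.0018 to 0.99, limma adjusted p = 0.204), 0.40 for Pdgfrb, 0.32 for Col3a1, 0.29 for Col1a1 and for Col1a2, 0.22 for Lum and 0.12 for Dcn. In row 1 they were -0.40 for Lum, -0.37 for Col1a1, -0.30 for Acta2, -0.28 for Col3a1 and for Des, -0.25 for Col1a2, -0.12 for Pdgfrb and -0.096 for Dcn, each with an interval that took in 0. The adjusted p of Acta2 in row 2 ran from 0.0498 to 0.888 over the fits that left out 1 mouse.

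The test of the difference itself, the group difference in row 2 minus that in row 1, passed for none of the 9 genes by limma (4 of 9 at an unadjusted p under 0.05, against 14.8% of all features) and for 0.372% of all features. All 9 values were above 0, as were 33.8% of all features, with a median of 0.62 against -0.10 over all features. Timp1 had the largest value, 2.35 (SE 0.53, 95% interval 1.21 to 3.48, limma adjusted p = 0.0667). It passed under 2 of 9 other settings and in 2 of the 16 fits that left out 1 mouse: with the 75th percentile taken over probes detected on all arrays (2.44, adjusted p = 0.0393), with no filter on dim probes (2.35, 0.0423), without miR-185-inh mouse 8 (2.64, 0.0465) and without miR-185-inh mouse 12 (2.43, 0.0477). Over all these fits its adjusted p ran from 0.0393 to 0.136. Acta2 followed with 0.85 (95% interval -0.62 to 2.33, limma adjusted p = 0.564) and Des with 0.78 (95% interval 0.08 to 1.48, limma adjusted p = 0.286). Then came Col1a1 with 0.66 (95% interval -0.02 to 1.34), Lum with 0.62 (95% interval 0.02 to 1.21) and Col3a1 with 0.60 (95% interval 0.003 to 1.19). Col1a2 stood at 0.54, Pdgfrb at 0.52 and Dcn at 0.21, with intervals that took in 0.

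**Figure D2:**
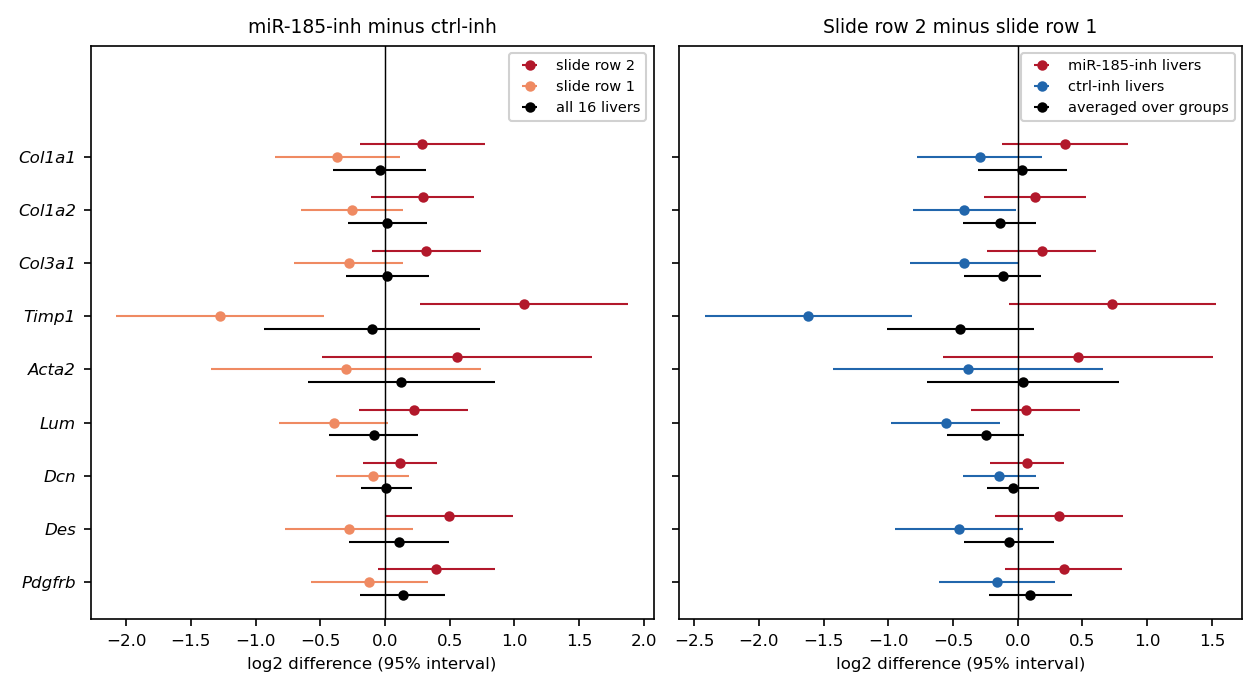
Log2 differences of the 9 tested genes with their 95% intervals from limma, between the groups (left; red row 2, orange row 1, black all 16 livers) and between slide rows (right; red miR-185-inh livers, blue ctrl-inh livers, black the average). In ctrl-inh livers every row difference lies below 0, with Timp1 at -1.62, and in miR-185-inh livers every one lies above 0, with Timp1 at 0.73.

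Mouse by mouse, the levels of the 9 genes went together. With the group means removed, miR-185-inh mouse 9 had the highest value of its group for 8 of the 9 genes and was among the 2 highest for all 9, while miR-185-inh mouse 6 had the lowest value for 6. Ctrl-inh mouse 1 was highest for 5 genes, and ctrl-inh mouse 9 was lowest for 7. Averaged over the 9 genes in units of each gene's SD within groups, these mice stood at 1.44, -1.09, 1.13 and -1.55.

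The spread itself differed from gene to gene. Timp1 had an SD within groups of 0.86 on the log2 scale and Acta2 of 0.75, larger than in 99.3% and 98.6% of all features, and their highest and lowest livers lay 8.02-fold and 8.78-fold apart. Dcn, at an SD of 0.19 and a 1.52-fold range, varied less than most features: 42.6% had a smaller SD. The SDs of the other 6 genes lay between 0.31 and 0.39.

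All 36 pairs of the 9 genes had a positive Pearson r over the 16 livers after removal of the group means, from 0.10 to 0.97 with a median of 0.67. Of these, 26 passed the Benjamini-Hochberg adjustment over the 36 pairs by a permutation test of r (100000 permutations) and 24 by that of Spearman's rho. The permutations shuffled all 16 livers with the rows left in, so a row difference that 2 genes share counts towards r. No share over pairs of other genes was taken. Some passing pairs were weak within row 1: Timp1 had an r of 0.02 with Lum and 0.13 with Des there, against 0.66 and 0.74 within row 2. Col1a2 and Col3a1 were nearly parallel: r = 0.97 and rho = 0.96, each with a permutation p of 1e-05, the smallest these permutations can give (adjusted p = 0.00036 for each). The r was 0.96 without the 2 livers farthest from the median of Col1a2, 0.96 within row 2 and 0.98 within row 1. Col1a2 followed Lum with r = 0.87 and rho = 0.88, and Col1a1 followed Col1a2 with r = 0.79 and rho = 0.74.

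Acta2 stood most apart from the rest, with a median r of 0.37 with the other 8 genes. It passed with Des (r = 0.70, rho = 0.66) and Lum (r = 0.65, rho = 0.69) and had r = 0.10 with Pdgfrb (permutation p = 0.717 for r). Timp1 and Col3a1 had r = 0.80 and rho = 0.64, but the relation was uneven: 0.63 without the 2 livers farthest from the median of Col3a1, 0.88 within row 2 and 0.50 within row 1. Within the rows, after removal of the 4 means, 33 of the 36 pairs kept an r above 0 in both rows. In a piece of liver, fewer cells of a type and less RNA per cell cannot be told apart.

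**Figure D3:**
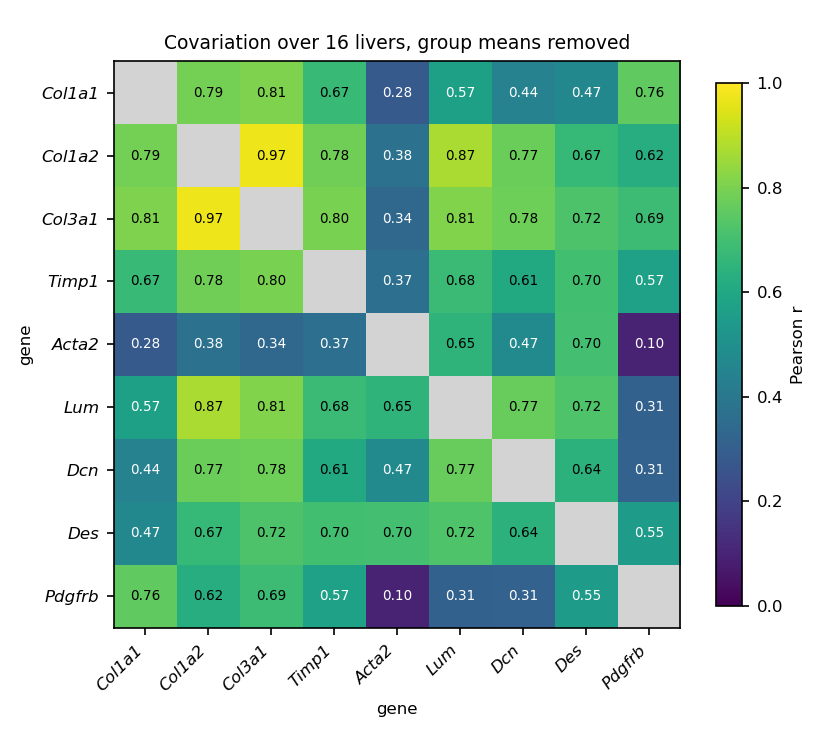
Pearson r between each pair of the 9 tested genes over 16 livers, with group means removed; colour runs from 0 to 1 and the diagonal is left grey. Col1a2 and Col3a1 share the highest value, 0.97, and Acta2 with Pdgfrb the lowest, 0.10; Pdgfrb also has 0.31 with Lum and with Dcn.

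Because Col1a2 and Col3a1 had the closest levels from mouse to mouse and Timp1 had the largest SD within groups, the 250 bases before their start sites are shown (RefSeq, GRCm38.p6; 5 of the 10 genes have a promoter in the table used). All 3 lie on the plus strand, Col1a2 at chr6:4505368-4505617, Col3a1 at chr1:45311288-45311537 and Timp1 at chrX:20869916-20870165. Capitals mark exact matches, on either strand, to GGGCGG, known as the GC box, to the CCAAT box of that spelling, to CAGAC, which is the SMAD-binding element, to TGANTCA for AP-1 or to the TATA box spelled TATAAA.
Col1a2: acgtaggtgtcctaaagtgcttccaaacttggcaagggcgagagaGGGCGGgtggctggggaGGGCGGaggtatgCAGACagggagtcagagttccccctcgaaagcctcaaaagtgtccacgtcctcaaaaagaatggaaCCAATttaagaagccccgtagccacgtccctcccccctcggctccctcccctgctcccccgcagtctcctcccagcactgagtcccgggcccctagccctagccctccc
Col3a1: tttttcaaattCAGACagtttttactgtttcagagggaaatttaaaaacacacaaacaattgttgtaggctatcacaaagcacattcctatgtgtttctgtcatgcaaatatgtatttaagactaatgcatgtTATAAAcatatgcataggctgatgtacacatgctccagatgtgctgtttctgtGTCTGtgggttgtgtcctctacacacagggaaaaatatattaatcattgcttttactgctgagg
Timp1: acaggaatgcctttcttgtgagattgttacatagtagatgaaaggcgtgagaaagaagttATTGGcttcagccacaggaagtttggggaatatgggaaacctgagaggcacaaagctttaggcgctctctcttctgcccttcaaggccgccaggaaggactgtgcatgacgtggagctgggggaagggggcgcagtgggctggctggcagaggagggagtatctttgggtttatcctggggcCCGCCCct
The Col1a2 window held 2 GC boxes, 1 CCAAT box and 1 SMAD-binding element, and the Col3a1 window held 2 SMAD-binding elements and 1 TATA box, so the SMAD-binding element was the single motif that both had. The Timp1 window held 1 GC box and 1 CCAAT box, both on the minus strand. No match overlapped another, and these letters are common: of 27025 promoter windows of the same length, 42.1% held the SMAD-binding element, 34.5% the CCAAT box, 32.9% the GC box, 13.0% the TATA box and 6.87% the AP-1 motif, which none of the 3 windows held. A match is a description of the letters and not of a bound site.

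Among 15145 named genes outside the set, those whose deviations followed the mean of the 9 genes most closely over the 16 livers were Plat (r = 0.96), the tissue plasminogen activator, Olfml3 (0.96), Pdgfra (0.95), the other PDGF receptor, Ccl19 (0.95), a chemokine, and Emp1 (0.94), a membrane protein. In all, 17 named genes reached an r of at least 0.9. None of these 5 genes passed between the groups (limma adjusted p of 0.367 to 0.990). The r was taken with the rows left in, so the choice of these genes fixes that they share the members' row pattern.

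The wider matrix programme was read from 8 further lists of genes. Between the groups 4 genes of these lists passed, to be read against the 4.71% of all features that did. P4ha1, a collagen prolyl 4-hydroxylase subunit, was lower in miR-185-inh livers by -0.59 on the log2 scale (limma adjusted p = 0.0341), and Plod3, a lysyl hydroxylase of collagen, by -0.23 (adjusted p = 0.0281). They were 2 of 18 tested genes of collagen folding and cross-linking, whose median was -0.061. Smad4, the shared partner of the TGF-beta signal transducers, was higher by 0.21 (adjusted p = 0.0327), as 1 of 21 genes of TGF-beta signalling (median 0.05). Cygb, a globin of stellate cells, was higher by 0.38 (adjusted p = 0.0338), as 1 of 19 stellate cell markers (median 0.07). None passed among 12 other collagens (median -0.045), 18 other matrix proteins (0.14), 15 matrix proteases and inhibitors (-0.01), 5 PDGF ligands and receptor genes (-0.17) or 12 contractile genes (-0.042). Each of these 4 calls was lost when certain mice were left out: P4ha1 was called in 9 of 16 such fits, Plod3 in 12, Smad4 in 8 and Cygb in 8, with adjusted p of at most 0.0682.

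Rheb and Rictor, components of mTOR signalling fixed for reporting, averaged 2.78 ± 0.12 and -1.96 ± 0.32 in miR-185-inh livers, against 2.78 ± 0.07 and -1.86 ± 0.24 in ctrl-inh livers (SD, n = 8 each). Neither passed between the groups (limma adjusted p = 0.961 and 0.745).

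Between the rows of the ctrl-inh slide, where 3.24% of all features passed, genes of 4 of these lists were called. Of 15 matrix proteases and inhibitors 4 were lower and 1 higher in row 2 (median -0.65), of 18 other matrix proteins 4 were lower (median -0.40), of 21 TGF-beta genes 4 were lower (median -0.091) and of 19 stellate cell markers 3 were lower (median -0.44). None of 12 other collagens (median -0.26), 18 genes of collagen processing (-0.15), 5 PDGF genes (0.008) or 12 contractile genes (-0.26) was called. Named after their values were seen, Plau (-1.71, limma adjusted p = 0.0066), Hand2 (-0.65, 0.0073), Tcf21 (-0.98, 0.0101), Ctsk (-0.85, 0.0108) and Tgfb1 (-0.52, 0.0126) had the smallest adjusted p among them, and each was called in all 16 fits that left out 1 mouse. Plau was not well above background on every array, and the size of its difference depended on the processing. It ran from -1.90 to -0.51 over 25 alternative fits, all of which kept the call. Tgfb1 encodes the ligand that turns stellate cells into myofibroblasts. Ccn2, its connective tissue growth factor target and also named after its value was seen, was at -1.39 (limma adjusted p = 0.0459). It was called in 6 of the 16 fits, with an adjusted p of up to 0.118. Lamc1 (0.0263), Mmp12 (0.0282) and Fbn1 (0.0321), named in the same way, were among the list genes with a smaller limma adjusted p than Ccn2. Of the 21 TGF-beta genes 15 were below 0 and 6 above.

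Averaged over both groups, where 3.22% of all features passed, the row difference passed for 2 of 18 other matrix proteins, Postn (-0.40) and Ogn (-0.85), for 3 of 15 proteases and inhibitors, Plau (-0.78), Ctsk (-0.42) and Timp4 (0.50), and for 2 of 19 stellate cell markers, the transcription factors Hand2 (-0.35) and Tcf21 (-0.47). Plau encodes urokinase, Ctsk the collagen-cutting cathepsin K and Timp4 another metalloproteinase inhibitor, which was higher in row 2. Outside the matrix lists, the mesothelial markers Upk1b (-1.16) and Gpm6a (-0.53) and the sinusoidal endothelial marker Lyve1 (-0.69) passed. Of the 16 fits that left out 1 mouse, Timp4 and Hand2 were called in 16, Plau in 11, Lyve1 in 10, Ctsk and Tcf21 in 6, Postn, Ogn and Upk1b in 4 and Gpm6a in 2, with an adjusted p of up to 0.102. Plau was well above background on 10 of 16 arrays and Upk1b on 8, the fewest that the filter admits. Which arrays these were is not given, so Upk1b may have passed the filter through 1 row alone. The difference of Upk1b ran from -1.38 to -0.31 over 27 alternative fits, of which 12 kept the call. In miR-185-inh livers none of the 25789 features passed between the rows, and so none of the listed genes. There Plau stood at 0.16, Ctsk at 0.015, Tcf21 at 0.05 and Hand2 at -0.051.

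Markers of other liver cells were set beside the same split. In ctrl-inh livers all 14 endothelial markers were below 0 between the rows, with a median of -0.56 and 4 called lower, and their summed level (linear values over the array's 75th percentile) was 41.3 to 56.3 in row 2, against 64.0 to 70.2 in row 1, without overlap. Kupffer cell and macrophage markers were below 0 in 16 of 16 (median -0.39), with none called and sums of 110.4 to 149.8 in row 2, against 141.2 to 164.0 in row 1, which overlapped. Stellate cell markers summed to 56.3 to 65.5 in row 2, against 61.6 to 69.7 in row 1. All 12 hepatocyte markers were above 0 (median 0.20, none called), as were 67.2% of all features, with sums of 534.4 to 670.6 in row 2, against 420.9 to 551.8 in row 1, which overlapped too. In miR-185-inh livers the endothelial sums were 53.5 to 70.0 in row 2, against 45.8 to 65.4 in row 1, and the hepatocyte sums 446.1 to 606.4 in row 2, against 458.2 to 581.2 in row 1. No listed marker gene was called there, nor was any other of the 25789 features.

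The other cell type lists had no gene called between the ctrl-inh rows. Smooth muscle markers, which include Des, had a median of -0.17 over 8 genes, portal fibroblast markers -0.20 over 12, mesothelial markers -0.50 over 9, cholangiocyte markers 0.11 over 9 and neutrophil markers 0.36 over 11. Between the groups all 11 tested neutrophil markers had differences below 0 in miR-185-inh livers (median -0.83), Ltf by -1.97 (limma adjusted p = 0.0241) and Ngp by -1.22 (adjusted p = 0.0429). Ltf was called in all 16 fits that left out 1 mouse and Ngp in 3 of them. The summed level of the list was 2.1 to 12.8 in miR-185-inh livers, against 4.3 to 15.4 in ctrl-inh livers. Of the Kupffer list all 16 were below 0 (median -0.15, none called), and 11 of 12 hepatocyte markers were below 0 (median -0.067, none called). Between the groups 42.0% of all features were above 0, with a median of -0.033. Endothelial (0.07), smooth muscle (-0.003), portal fibroblast (-0.05), mesothelial (-0.098) and cholangiocyte markers (-0.047) had medians near 0 with none called. The part of these cell markers in the levels of the 9 genes was not tested.

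**Figure D4:**
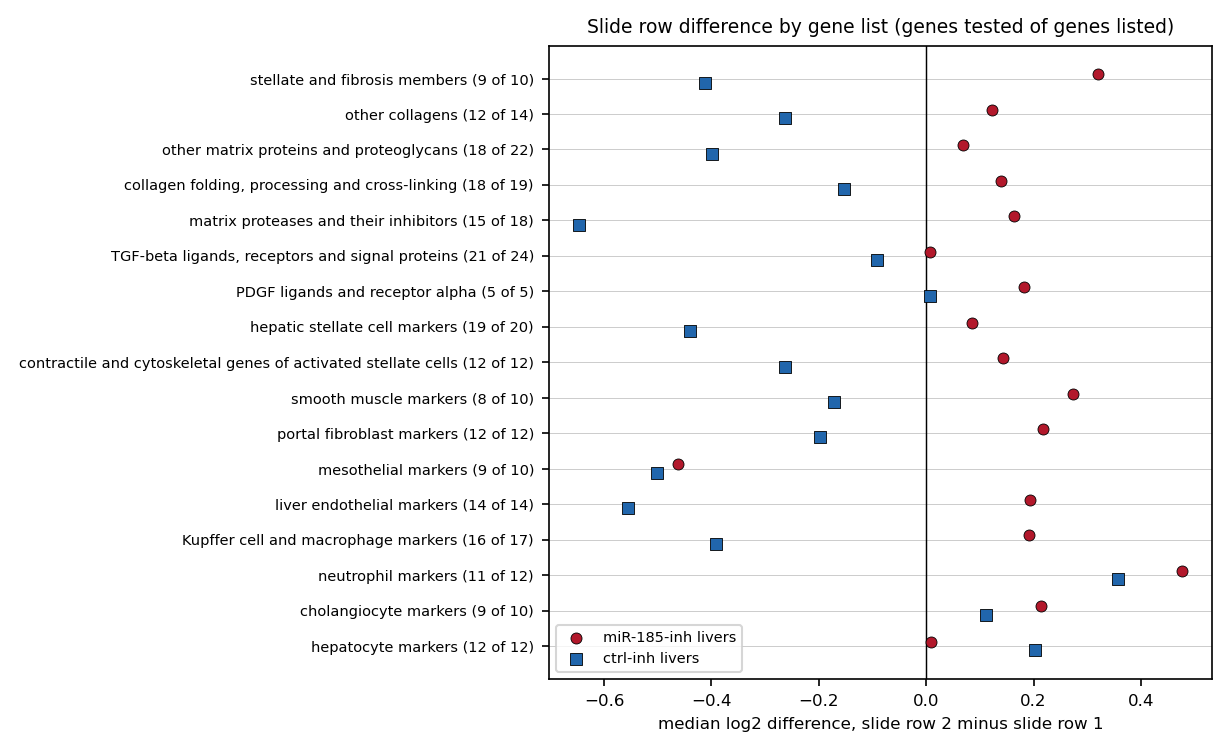
Median log2 difference, row 2 minus row 1, of each gene list in miR-185-inh livers (red circles) and in ctrl-inh livers (blue squares), with the number of genes tested of those listed. The 9 fibrosis genes lie at -0.41 in ctrl-inh livers. Several lists lie near them: other matrix proteins (-0.40), Kupffer cell and macrophage markers (-0.39), stellate cell markers (-0.44), mesothelial markers (-0.50) and endothelial markers (-0.56). Hepatocyte markers lie at 0.20.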

How the data were processed

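The deposited scanner files hold spot intensities that Agilent Feature Extraction 11.5.1.1 had background-subtracted, per the file headers; the submitters' processing notes name version 9.1. The deposited value table holds the authors' log2 values, which equal log2 of the processed signal minus a constant per array (largest SD of the difference 0.0069); it served as an alternative.

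From the processed intensities, log2 values were computed and centred on the 75th percentile of the 59305 non-control spots of the array. Outlier spots were left out, spots of a probe averaged, probes well above background on at least 8 of 16 arrays kept, and the brightest probe used for a gene. Limma 3.58.1 (R 4.3.3) was fitted to 25789 features, with a group model and a model of 4 group and row sets, and p-values were adjusted by Benjamini-Hochberg with a threshold of 0.05. Exact permutation tests and correlations used SciPy 1.17.1. The fits were tested on simulated data. The 10 genes and all lists were chosen with earlier results of these data known. The text names all 9 tested genes in every comparison. Of each list it names up to 3 genes with the smallest p among those called between the groups or between the rows averaged over groups. It also names 8 defining markers, Rheb and Rictor, and the 5 genes most alike. Genes outside this rule are said to be named after their values were seen. Alternatives covered background correction, normalization, filtering, probe choice, variance model, array weights, slide position and leaving out each mouse. Promoters came from RefSeq (GRCm38.p6). The number of arrays limits the precision.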

Additional observations from a re-analysis of the deposited data

Results flagged for a closer look

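Timp1 in miR-185-inh mouse 9 stood at -1.64 on the log2 scale, against -3.11 in the nearest other miR-185-inh mouse. Its gap to that mouse was 0.674 of the range of the 8 mice, past Dixon's limit for 8 values. This was 1 of 18 sets of values tested (9 genes in 2 groups), and chance passes about 1 in 20.

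The group difference was not the same in the rows for 2 genes of the lists. For Plau, which encodes urokinase, the miR-185-inh minus ctrl-inh difference in row 2 minus that in row 1 was 1.88 on the log2 scale (limma test of the difference, adjusted p = 0.0417), a call kept in 7 of the 16 fits that left out 1 mouse. Plau was well above background on 10 of 16 arrays, and the value was 0.54 after normexp background correction, where it did not pass. For Tgfb1 it was 0.64 (limma, adjusted p = 0.0482), a call kept in 2 of the 16.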

How the results depend on the processing

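Of 1665 alternative values for the 9 genes, 1583 kept their direction and their side of the threshold. Between the groups, these turned sign: with array weights Dcn -0.0026, Col1a2 -0.033 and Col3a1 -0.026; with the percentile over probes detected on all arrays Col1a2 -0.0065, Col3a1 -0.0060 and Dcn -0.014; with quantile normalization Timp1 0.00017; in row 1 alone Des -0.28, Pdgfrb -0.12, Col1a2 -0.25, Col3a1 -0.28, Acta2 -0.30 and Dcn -0.096; in row 2 alone Timp1 1.07, Lum 0.22 and Col1a1 0.29. Within row 1, Dcn was 0.022 after normexp. Between the rows, these turned: with array weights Pdgfrb -0.00018, Acta2 -0.077 and Col1a1 -0.025; with ctrl-inh arrays alone Acta2 -0.39, Col1a1 -0.29 and Pdgfrb -0.16; with miR-185-inh arrays alone Dcn 0.071, Col3a1 0.18, Des 0.32, Col1a2 0.13, Lum 0.062, Timp1 0.73, Ctsk 0.015, Plau 0.16 and Tcf21 0.046. The median row difference was 0.32 with miR-185-inh arrays alone and -0.41 with ctrl-inh arrays alone, where 1 gene was called. With slide position as covariates 0 were called between the ctrl-inh rows; with the percentile over detected probes and with no filter 1 was called for the difference of group differences.

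Leaving out 1 mouse at a time moved the group difference of Col1a1 between -0.15 and 0.056, Col1a2 between -0.074 and 0.092, Col3a1 between -0.068 and 0.091, Timp1 between -0.34 and 0.14, Acta2 between -0.070 and 0.38 and Dcn between -0.036 and 0.054. It moved the averaged row difference of Col1a1 between -0.058 and 0.095, Acta2 between -0.28 and 0.24, Dcn between -0.081 and 0.013 and Des between -0.16 and 0.021. Within groups it moved the row difference of Acta2 in ctrl-inh livers between -1.04 and 0.0095, of Lum in miR-185-inh livers between -0.046 and 0.18 and of Dcn there between -0.019 and 0.17, and the row 1 group difference of Pdgfrb between -0.26 and 0.037. The count of genes called ranged from 0 to 1 between the ctrl-inh rows, between the groups in row 2 and for the difference of group differences. The cause of these changes was not tested.

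For the 5 mouse numbers that both groups share, deviations of same-numbered samples had an r from -0.13 to 0.11. These values showed no pairing, but 5 numbers cannot exclude one. With the replicate block on those mice Lum was 0.049 and Timp1 0.080, as without the block on the same mice, and no gene was called in either. Over all features the count called between the groups ran from 0 to 1790 with the percentile over detected probes, against 1214 as reported. The count was 0 with the replicate block, on the same mice without the block and in row 1 alone. Between the ctrl-inh rows it ran from 129 without ctrl-inh mouse 1 to 6112 with no filter, against 836, between the miR-185-inh rows from 0 to 709 without miR-185-inh mouse 7, between the groups in row 1 from 0 to 3682 with no filter, against 2, for the difference of group differences from 5 without ctrl-inh mouse 1 to 2366 with no filter, against 96, and between the groups in row 2 from 450 without ctrl-inh mouse 11 to 1833 without miR-185-inh mouse 7, against 1491.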

Other observations

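Among the row 2 arrays none of the 9 genes passed. There 6 of 19 tested stellate cell markers were called higher in miR-185-inh than in ctrl-inh livers by limma, against 5.78% of all features called in either direction. Of the 19 markers 16 were above 0 and 3 below, where 37.1% of all features were above 0. The 6 were named after their values were seen: Tcf21 (log2 difference 0.87), Vipr1 (0.77), Hgf (0.67), Hand2 (0.62), Pdgfra (0.60) and Bmp5 (0.53). Tcf21 and Hand2 encode transcription factors of stellate cells, and Hgf the hepatocyte growth factor that they secrete. In the same comparison other lists had genes called higher: 3 of 14 endothelial markers, 3 of 18 other matrix proteins and 2 of 15 proteases and inhibitors. So did 1 of 18 collagen processing genes, 1 of 8 smooth muscle markers and 1 of 5 PDGF genes, Pdgfra. Of 11 neutrophil markers 1 was called lower. Among the row 1 arrays no gene of any list was called, where 0.00776% of all features were. There the stellate cell markers had a median of -0.13, with 5 above and 14 below 0. Tcf21, Hand2 and Bmp5 were also called lower in ctrl-inh row 2 than in ctrl-inh row 1, and the same ctrl-inh row 2 arrays enter both comparisons. The number of features called in row 2 ran from 450 to 1833 when 1 mouse was left out, and the 6 calls are not given for those fits.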
